A study of Mus musculus with 23 samples.

Results

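Cystatin C and the lysosomal proteases are described here in type 1 conventional dendritic cells (cDC1) from melanomas, the dendritic cell subset that takes up material of dying tumour cells and presents it to CD8 T cells. The 10 genes are Cst3, Ctsb, Ctsc, Ctsd, Ctsh, Ctsl, Ctsz, Lamp1, Lgmn and Psap, taken by gene name from the 13572 gene rows of the count table. All 10 were found there. Together they held 17840 counts, or 1.55% of all counts, and Cst3 alone held 85.6% of these. Cells came from wild-type C57BL/6 mice that had been injected under the skin with BRAFV600E melanoma cells 6 days earlier. In the control group the melanoma cells kept prostaglandin synthesis, and in the PGE2-deficient group they were knocked out for Ptgs1 and Ptgs2, which encode both cyclooxygenases. The knockout was in the melanoma cells only, the host cells kept both genes, and no PGE2 level is part of these data. Live cells were sorted for CD45, MHC-II, CD11c and CD103 and against CD11b, and were sequenced by Smart-seq3 in pools of 10 cells, with 12 pools from 4 control mice and 11 pools from 4 mice with PGE2-deficient tumours.

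Lysosomes break down proteins that a cell has taken up, and in dendritic cells the extent of this breakdown influences which peptides reach MHC molecules. The cysteine cathepsins B, C, H, L and Z, the aspartic protease cathepsin D and legumain, which cuts after asparagine, are among the enzymes that do the cutting. They are made as inactive precursors and become active at acidic pH. Cystatin C, the product of Cst3, is a small secreted protein that binds cysteine cathepsins tightly and blocks them, and its messenger is known to be abundant in dendritic cells. Psap encodes prosaposin, the precursor of the saposins that help to degrade sphingolipids, and Lamp1 encodes a glycoprotein of the lysosomal membrane.

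Libraries held 25571 to 98554 counts (median 49506) and mice 101017 to 230478. The labels call the pools of a mouse technical replicates, so they were summed and the mouse was the unit of replication. Of the cDC1 markers, 11 of 11 had counts in both groups (1324 in control pools and 2559 in PGE2-deficient pools), among them Irf8 (349 and 735), Clec9a (71 and 106) and Xcr1 (30 and 161). Macrophage markers (11 of 12 in the table) had 276 counts in control pools and 33 in PGE2-deficient pools, with 0 to 130 per control pool (median 3) and 0 to 12 per PGE2-deficient pool (median 1), and C1qb was at 0 in the PGE2-deficient group. Control mouse 2 pool 2 and control mouse 4 pool 1 held 120 and 130 of the macrophage marker counts and stand apart from the rest. Markers of plasmacytoid dendritic cells (pDC) had 125 counts, at 0 to 46 per control pool, against 12, at 0 to 5 per PGE2-deficient pool, with Siglech, Ly6d, Klk1 and Cox6a2 at 0 in the PGE2-deficient group. T cell markers had 14 counts (0 to 11 per pool) and 64 (0 to 33). For several genes, though not for all, results are also given without the pools with macrophage, pDC or T cell markers. Markers of cDC2, the other conventional dendritic cell subset, had 268 counts in control pools (8 of 8 markers with counts, 7 to 61 per pool, median 20.5) and 65 in PGE2-deficient pools (8 of 8, 0 to 19 per pool, median 4), and Csf1r is in both this list and that of macrophages. Every pool of control mice 2, 3 and 4 held 10 or more cDC2 marker counts, so the pools kept below still contain them and no result is given without them.

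Of the 10 genes, 7 passed the count filter and were tested, and Ctsd, Ctsl and Lgmn did not, with 22, 22 and 71 counts in all. With PGE2-deficient tumours 0 of the 7 were called higher and 0 lower by edgeR at an adjusted p under 0.05. DESeq2 also called 0 of the 7. Among all 2076 tested genes 2.7% were called higher and 2.26% lower, a split of 56 to 47 that was 45 to 67 with upper quartile factors and 70 to 24 with library totals. The median of all genes moved by less than 0.1 on the log2 scale under these scalings. The fitted fold change was positive for 5 of the 7 tested and for 1052 of all 2076 tested genes. The median log2 fold change was 0.15 for the 7 and 0.01 over all tested genes. All 4 mice of one group were above all 4 of the other for 1 of the 7 tested genes, Cst3, and 10.6% of all tested genes were separated in this way.

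**Figure D1:**
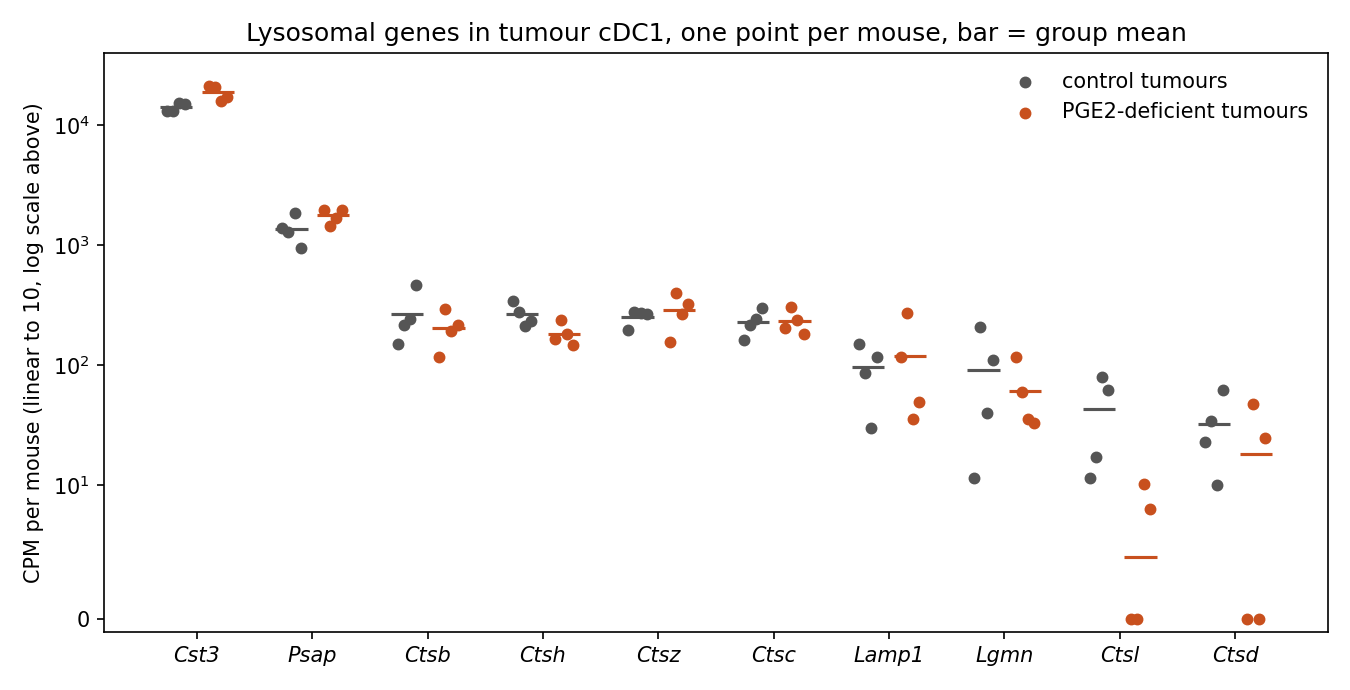
Scaled counts (CPM) of the 10 genes in each of the 8 mice, on an axis that is linear up to 10 and logarithmic above. Points are mice and bars are group means. Cst3 lies above the other 9 genes in every mouse, and the Ctsl points of the control mice lie above those of the PGE2-deficient mice. The Ctsl points rest on 19 control and 3 PGE2-deficient counts. In PGE2-deficient mice 1 and 2 its counts of 0 allow up to 29.2 and 35.6 CPM.

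Cst3 was the inhibitor of the set and by far its most abundant messenger. In CPM (counts scaled to the TMM-adjusted total of the tested genes) the control mice had 13182, 13035, 15216 and 15007 and the PGE2-deficient mice had 21334, 20878, 16022 and 17244. Every PGE2-deficient mouse was above every control mouse, with 16022 and 15216 as the closest values. The group means were 14110 ± 1161 and 18869 ± 2637 CPM (SD, n = 4 mice each), and Cst3 was the 5th most abundant of the 2076 tested genes in the control group and the 4th in the other. The log2 fold change was 0.42 ± 0.13 (SE, 95% interval 0.15 to 0.69), a 1.34-fold difference with an interval from 1.11 to 1.61. Its edgeR p was 0.00415 before adjustment, and the edgeR adjusted p of 0.0644 missed the threshold. The exact permutation test on the mouse values alone gave a two-sided, unadjusted p = 0.0286. This is the smallest that 4 mice against 4 allow, and every gene whose groups do not overlap reaches it. In pools of cells a higher value can stand for more cells of a type or for more RNA per cell, and these cannot be told apart.

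The side of the threshold on which Cst3 fell depended on the setting. Its fold change was positive in 24 of 24 alternatives, with log2 values from 0.34 to 0.54, and 6 of the 24 called it, with adjusted p over all alternatives from 0.013 to 0.299. Among the 8 fits without 1 mouse (0.35 to 0.48), only the fit without PGE2-deficient mouse 3 called it (adjusted p = 0.0334). Without the 3 pools that held 10 or more macrophage marker counts, the log2 fold change was 0.42 (adjusted p = 0.102) and the groups did not overlap. Without the 10 pools that held 10 or more counts of macrophage, pDC or T cell markers it was 0.50 (adjusted p = 0.198), and there the groups overlapped. Marker counts of cDC1, given above, and of mature dendritic cells (487 at 1 to 87 per control pool, 1119 at 17 to 177 per PGE2-deficient pool) were higher in the same group as Cst3, and their part in the result was not tested.

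Every pool contained Cst3, so its spread can be followed below the mouse. Control pools ran from 8917 to 19196 CPM with a median of 14077, and PGE2-deficient pools from 15333 to 23362 with a median of 18573. The pools of the groups thus overlapped although the mice did not. Both extremes of the control group in CPM came from mouse 2. As unscaled shares of the library the control pools ran from 0.706% in mouse 2 pool 1 to 1.502% in mouse 4 pool 3. Over all pools of a group, differences between mice included, the variance was 21.8 times what counting error alone gives in the control group. In the other group it was 19.8 times. As a share of all counts, Cst3 made up 1.00% to 1.23% in control mice and 1.36% to 1.74% in PGE2-deficient mice.

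**Figure D2:**
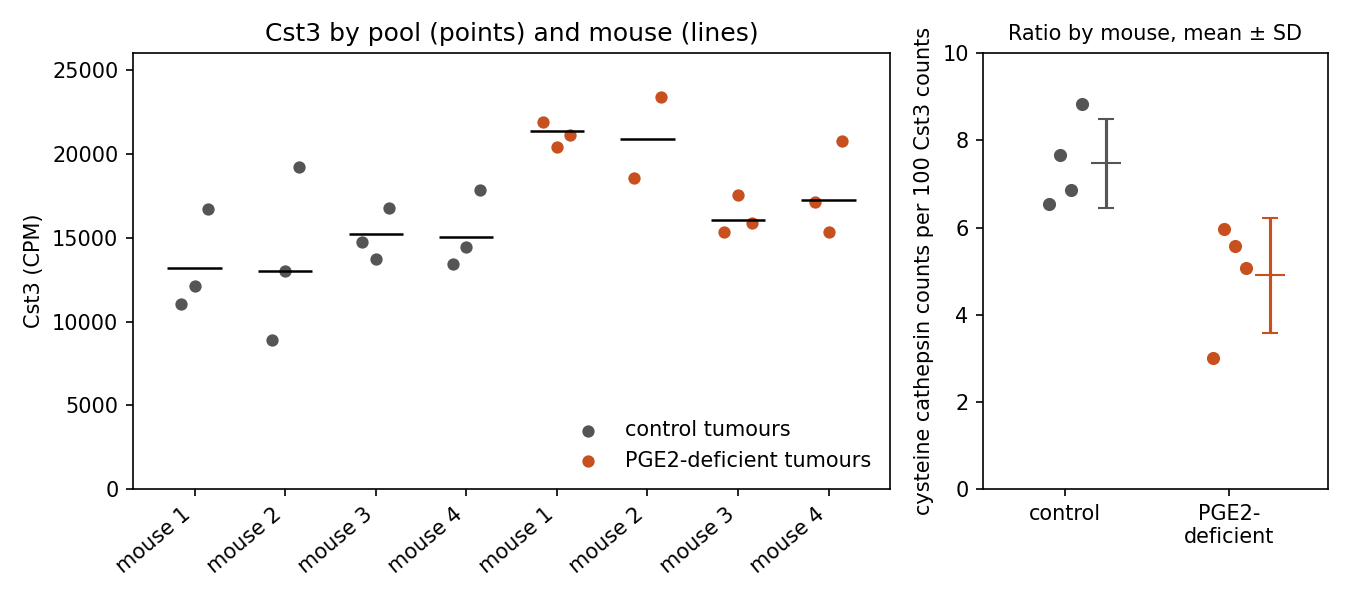
Left, Cst3 in CPM for each pool (points) and each mouse (lines), in grey for control and in orange for PGE2-deficient tumours. Right, counts of the cysteine cathepsins Ctsb, Ctsc, Ctsh, Ctsl and Ctsz per 100 Cst3 counts in each mouse, with mean and SD, at 6.54 to 8.83 in the control group and 3.02 to 5.97 in the other.

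The cysteine cathepsins were measured one by one at much lower counts. Ctsb, a broadly acting endopeptidase that also trims peptides from their ends, had 150, 215, 241 and 463 CPM in control mice and 117, 297, 194 and 215 in PGE2-deficient mice. The groups overlapped, and control mouse 4 was far above the rest. The means were 267 ± 136 and 206 ± 73.8 CPM (SD, n = 4 mice each), with a log2 fold change of −0.42 ± 0.33 (95% interval −1.12 to 0.28, edgeR adjusted p = 0.555). Control mouse 4 pool 1, which held 130 macrophage marker counts, had 47 of the 121 control counts of Ctsb, where the median control pool had 6.5. Without the 3 pools with macrophage markers the log2 fold change was 0.06 (adjusted p = 0.946), and without the 10 pools with macrophage, pDC or T cell markers it was 0.21 (adjusted p = 0.833).

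Ctsh, an aminopeptidase that removes residues from the amino end, had 345, 275, 211 and 235 CPM in control mice and 166, 237, 184 and 149 in PGE2-deficient mice. The means were 267 ± 58.7 and 184 ± 38.4 CPM, and the groups overlapped through PGE2-deficient mouse 2. The log2 fold change was −0.54 ± 0.27 (95% interval −1.09 to 0.02, edgeR adjusted p = 0.284) and negative in 24 of 24 alternatives, from −0.77 to −0.32, none of which called it. It was −0.60 (adjusted p = 0.224) without the pools with macrophage markers. The 2 control pools with most macrophage markers held 16.8% of the control counts of Ctsh and 20.7% of all control counts.

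Ctsc, the dipeptidyl peptidase that activates granule serine proteases in other immune cells, had 161, 215, 241 and 298 CPM in control mice and 205, 308, 240 and 182 in the PGE2-deficient mice. Both groups covered about the same range, with means of 229 ± 56.9 and 234 ± 55.3 CPM. The log2 fold change was 0.00 ± 0.28 (95% interval −0.58 to 0.59, edgeR adjusted p = 0.996), an interval that leaves room for a difference of this size in either direction. Without the pools with macrophage markers it was 0.44 (adjusted p = 0.43), and without the 10 pools with macrophage, pDC or T cell markers it was 0.70 (adjusted p = 0.412).

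Ctsz, a carboxypeptidase that removes single residues, had 196, 275, 271 and 267 CPM in control mice, where mouse 1 lay below a narrow group of the other 3. PGE2-deficient mice had 156, 403, 265 and 322 CPM, on both sides of the control values. The means were 252 ± 37.9 and 287 ± 104 CPM, with a log2 fold change of 0.16 ± 0.28 (95% interval −0.42 to 0.75, edgeR adjusted p = 0.822). Over all pools of a group, differences between mice included, the variance was 0.916 times that of counting error in the control group. In the PGE2-deficient group it was 3.71 times.

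Ctsl, which encodes the endopeptidase cathepsin L, was the scarcest of the cysteine cathepsins. Control mice had 11.5, 17.2, 80.3 and 62.7 CPM, from 19 counts. PGE2-deficient mice had 0, 0, 10.2 and 8.25 CPM, from 3 counts, and a count of 0 allows up to 29.2 CPM in mouse 1 and 35.6 CPM in mouse 2. The groups did not overlap, although these limits lie above the control values of mice 1 and 2. Over all mice the ratio of control to PGE2-deficient counts per total was 7.42 (exact 95% interval 2.18 to 39.1, counting error only), and the exact permutation test over mice gave an unadjusted p = 0.0286. In the fit with no count filter Ctsl had an adjusted p = 0.129.

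The Ctsl counts lay in few pools. Among the control pools 6 of 12 had a count, with 7 in mouse 3 pool 3 and 6 in mouse 4 pool 1. These 2 pools also had the most pDC marker counts, 46 and 31, and the 4 control pools with 10 or more pDC marker counts held 16 of the 19 control counts of Ctsl and 34.1% of all control counts. No PGE2-deficient pool had as many pDC marker counts. Without the pools with macrophage markers 11 and 3 counts were left and the groups overlapped (exact permutation p = 0.171). Without the 10 pools with macrophage, pDC or T cell markers 1 and 2 counts were left.

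**Figure D3:**
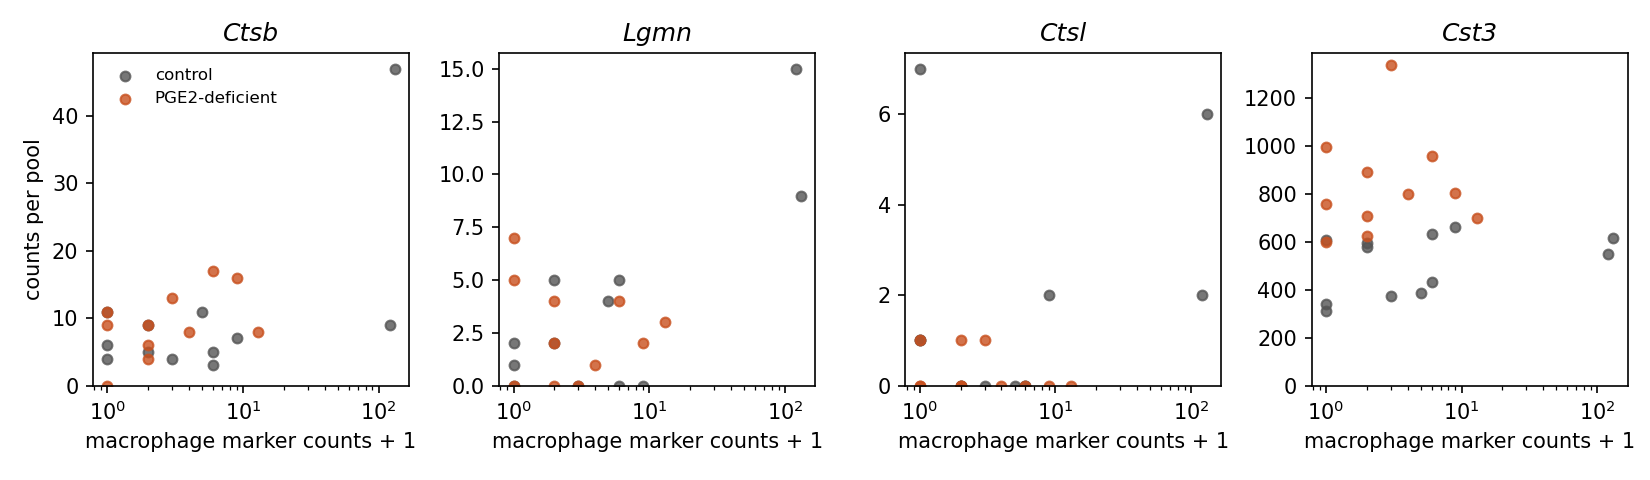
Counts of Ctsb, Lgmn, Ctsl and Cst3 in each of the 23 pools against the summed macrophage marker counts of the pool plus 1, on a log axis, with 1 point per pool. The 2 control pools at the right, with 120 and 130 marker counts, hold 56 of the 121 control counts of Ctsb and 24 of the 43 of Lgmn, whereas their Cst3 counts lie among those of the other control pools.

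Set against the inhibitor, the 5 cysteine cathepsins together had 6.54, 7.66, 6.86 and 8.83 counts per 100 Cst3 counts in control mice and 3.02, 5.97, 5.57 and 5.07 in PGE2-deficient mice. The means were 7.47 ± 1.02 and 4.91 ± 1.31 (SD, n = 4 mice each), and the groups did not overlap. This ratio was formed after the levels of its genes were known and is given as a description. It leaves out Ctss, a cysteine protease described below that had a higher mean than each of the 5 in both groups. Leaving out 1 mouse gave differences of the means from −2.92 to −1.93, where all mice gave −2.57. Without the pools with macrophage markers the difference was −1.68, and the groups overlapped (control lowest 5.63, PGE2-deficient highest 5.97). Without technical replicate 1 of every mouse it was −1.44, also with overlap, and without technical replicate 3 it was −3.53, with a lowest control value of 5.51 and a highest PGE2-deficient value of 5.82. Without the 10 pools with macrophage, pDC or T cell markers the control mice ran from 3.79 to 7.27 and the PGE2-deficient mice from 2.55 to 6.15, with a difference of −1.04.

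Outside the cathepsins of the cysteine type, Lgmn had 11.5, 206, 40.1 and 110 CPM in control mice and 117, 59.3, 35.7 and 33.0 in PGE2-deficient mice. Legumain matures other cathepsins and starts the breakdown of some antigens. The means were 92.0 ± 86.8 and 61.2 ± 39.0 CPM from 43 and 28 counts, with overlapping groups (exact permutation p = 0.657). Control mouse 2 pool 2, the pool with 120 macrophage marker counts, held 15 of the 43 counts, and without the 3 pools with macrophage markers 19 and 25 counts were left. Ctsd, which encodes the aspartic protease cathepsin D, had 23.01, 34.4, 10.0 and 62.7 CPM in control mice and 0, 47.4, 0 and 24.8 in the others. These rest on 15 and 7 counts (exact permutation p = 0.429), and the counts of 0 allow up to 29.2 and 15.3 CPM in PGE2-deficient mice 1 and 3. Over all mice the ratio of control to PGE2-deficient Ctsd counts per total was 2.51 (exact 95% interval 0.96 to 7.28, counting error only). At this depth a difference in Ctsd was neither shown nor excluded.

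The remaining genes are not proteases. Psap had 1380, 1299, 1847 and 957 CPM in control mice and 1969, 1459, 1699 and 1965 in PGE2-deficient mice, so that control mouse 3 lay within the range of the other group. The means were 1371 ± 367 and 1773 ± 244 CPM, with a log2 fold change of 0.38 ± 0.18 (95% interval 0.00 to 0.75, edgeR adjusted p = 0.263). It was positive in 24 of 24 alternatives, from 0.23 to 0.55, and called in none. The 2 control pools with most macrophage markers held 24.3% of its control counts, close to their 20.7% of all control counts. Lamp1 had 150, 86.0, 30.1 and 118 CPM in control mice and 117, 273, 35.7 and 49.5 in PGE2-deficient mice, a wide spread in both groups. Its log2 fold change was 0.15 ± 0.55 (95% interval −0.99 to 1.29, edgeR adjusted p = 0.919), and PGE2-deficient mouse 2 pool 3 alone held 16 of its 48 counts in that group. Without that mouse the log2 fold change was −0.60 (adjusted p = 0.66).

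**Figure D4:**
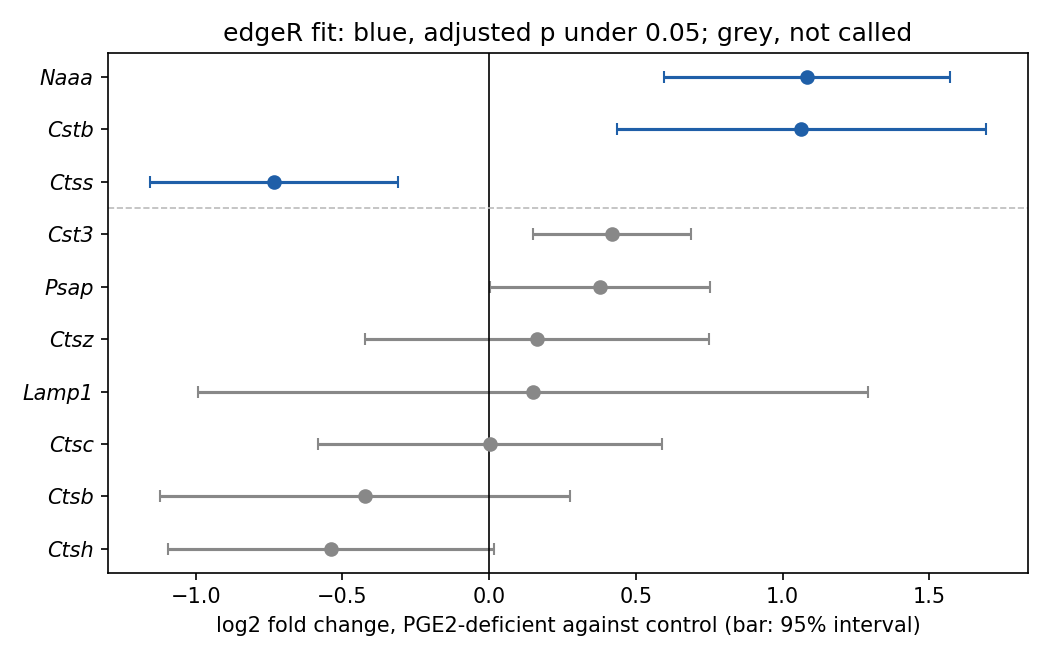
Log2 fold changes of the 7 tested genes (below the dashed line) and of Ctss, Cstb and Naaa, 3 other lysosomal genes (above it), with 95% intervals from the edgeR fit. Positive values are higher with PGE2-deficient tumours. The 7 lie between −0.54 and 0.42 and are not called, and the other 3 are called. Their calls were kept in 12 of 24 alternatives for Ctss, 23 of 24 for Naaa and 5 of the 21 that tested Cstb. Cstb passed the count filter only through the PGE2-deficient mice, where it was called higher.

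Levels of different genes were compared per kilobase of the principal transcript, which applies if the deposited values count reads and not molecules. In CPM per kilobase the control order was Cst3 at 16407, Psap at 516, Ctsz at 175, Ctsh at 165, Ctsc at 91.8, Ctsb at 56.3, Lgmn at 46.2, Lamp1 at 43.0, Ctsl at 21.8 and Ctsd at 15.3. Neighbours did not overlap over the 4 mice between Cst3 and Psap, between Psap and Ctsz and between Ctsh and Ctsc, and all other neighbours did. In the PGE2-deficient group Cst3 stood at 21941, Psap at 667 and Ctsz at 199, again with no overlap between Cst3 and Psap or between Psap and Ctsz. Ctsz overlapped Ctsh, the next below it, and Ctsh at 114, Ctsc at 93.7, Lamp1 at 53.3, Ctsb at 43.3, Lgmn at 30.8, Ctsd at 8.49 and Ctsl at 2.34 overlapped from neighbour to neighbour. The 3 leading genes had the same order with the length of all annotated exons, whereas places among the lower genes moved.

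In GRCm38 with GENCODE M21 all 10 genes are annotated as protein-coding. Cst3 (ENSMUSG00000027447) lies on the minus strand at chr2:148871722-148875692, Psap (ENSMUSG00000004207) on the plus strand at chr10:60277627-60302597 and Lamp1 (ENSMUSG00000031447) on the plus strand at chr8:13159161-13175338. Among the cysteine cathepsins Ctsb (ENSMUSG00000021939) lies at chr14:63122462-63145923 (plus), Ctsc (ENSMUSG00000030560) at chr7:88278085-88310888 (plus), Ctsh (ENSMUSG00000032359) at chr9:90054152-90076089 (plus), Ctsl (ENSMUSG00000021477) at chr13:64359337-64370890 (minus) and Ctsz (ENSMUSG00000016256) at chr2:174427493-174439039 (minus). Ctsd (ENSMUSG00000007891) lies at chr7:142375911-142388038 (minus) and Lgmn (ENSMUSG00000021190) at chr12:102394084-102439813 (minus). Ctsb, Ctsc, Ctsz and Lamp1 each overlap 1 gene of the opposite strand, with 4 to 23 counts in the table (Fdft1 7, Gm26522 23, Nelfcd 18 and Grtp1 4). Whether strand was used in counting is not given in the sources used here, so reads of such overlaps cannot be told apart.

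Many lysosomal genes carry the E-box that the transcription factor TFEB and its relatives bind, and promoter windows were searched for it. RefSeq promoter windows (GRCm38.p6, 250 bases before to 50 after the start) were found for 8 of the 10 genes, with none for Ctsb and Ctsh. The E-box CACGTG, which reads the same on both strands, occurred in windows of 4 of the 8, Ctsd, Ctsl, Lamp1 and Lgmn, and in 8.09% of all 27025 genes with a window. The longer TCACGTGA, which contains it, occurred in Ctsd, and in 1.12% of all genes. Neither occurred in the windows of Cst3, Psap, Ctsc and Ctsz. The stretches below show Lamp1 for its 4 E-boxes, Ctsd for the longer match and Psap, the second most abundant of the 10, for a window with none. Capitals mark CACGTG, and the stretches are chr8:13159061-13159160 (plus), chr7:142387909-142387936 (minus, within an annotated first exon) and chr10:60277527-60277626 (plus).
Lamp1: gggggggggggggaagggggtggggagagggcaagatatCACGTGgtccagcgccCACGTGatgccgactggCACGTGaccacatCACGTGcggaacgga
Ctsd: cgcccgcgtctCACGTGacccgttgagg
Psap: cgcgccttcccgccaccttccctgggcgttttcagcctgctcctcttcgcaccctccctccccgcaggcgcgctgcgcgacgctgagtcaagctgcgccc

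In Lamp1 the E-boxes begin 61, 45, 28 and 15 bases before the RefSeq start, and in Ctsd the longer match begins 99 bases before it. In control mice the 4 genes with an E-box had the lowest mean levels per kilobase of the principal transcript, although Lgmn overlapped Ctsb above it over the mice and was above Ctsc with the length of all exons. In PGE2-deficient mice Lamp1 was above Ctsb, which has no window here. Of these 4 only Lamp1 was tested. A match of letters is a description and shows no binding.

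Lysosomal genes outside the 10 were taken from lists. Of 12 other lysosomal proteases 8 were in the table and 2 were tested, with 0 higher and 1 lower. The 1 was Ctss, which encodes cathepsin S, the cysteine protease that degrades the invariant chain of MHC class II in dendritic cells. Ctss had 1150, 1841, 1275 and 1944 CPM in control mice and 1121, 1174, 816 and 677 in PGE2-deficient mice, so that PGE2-deficient mouse 2 was just above control mouse 1. It fell from 1553 ± 398 to 947 ± 239 CPM (log2 fold change −0.73 ± 0.20, edgeR adjusted p = 0.0448). The call was kept in 12 of 24 alternatives (adjusted p from 0.00984 to 0.326) and lost without control mouse 2, 3 or 4 or PGE2-deficient mouse 3 or 4, with values from −0.86 to −0.61 over the 8 fits. It was also lost without the pools with macrophage markers (−0.68, adjusted p = 0.0807) and without the 10 pools with macrophage, pDC or T cell markers (−0.58, adjusted p = 0.324). Summed cDC2 markers (268 and 65 counts) were lower in the same group as Ctss, and their part in the result was not tested. Prcp, a lysosomal carboxypeptidase, had 196 ± 61.3 and 176 ± 40.2 CPM and was not called.

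Of 10 cystatins and other cathepsin inhibitors 6 were in the table and 1 was tested, and it was called higher. This was Cstb, which encodes cystatin B, an inhibitor of cysteine cathepsins that stays inside the cell. Cstb had 80.5, 94.6, 100.4 and 125 CPM in control mice and 205, 249, 158 and 256 in PGE2-deficient mice, without overlap. These rest on 7, 11, 10 and 16 counts in control mice and 21, 21, 31 and 31 in PGE2-deficient mice. Fewer than 4 control mice reached the limit of the count filter. Cstb was thus tested only through the PGE2-deficient mice, where it was called higher. It rose from 100.2 ± 18.8 to 217 ± 45.3 CPM (log2 fold change 1.06 ± 0.30, edgeR adjusted p = 0.0466). The call was kept in 5 of the 21 alternatives that tested Cstb (adjusted p from 0.034 to 0.27). In the other alternatives Cstb was under the count filter. Among the fits without 1 mouse (0.95 to 1.2), the call was kept only without PGE2-deficient mouse 3. Without the pools with macrophage markers the log2 fold change was 1.01 (adjusted p = 0.0941).

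Of 27 soluble lysosomal proteins 10 were tested, with 1 higher, 0 lower and a median log2 fold change of 0.11. The called gene was Naaa, which encodes an acid amidase of the lysosome and is among the cDC1 markers used above. Its mean was 591 ± 192 CPM in control mice and 1254 ± 302 CPM in the other group, with a log2 difference of 1.08 ± 0.23 and an edgeR adjusted p of 0.0104, and 23 of 24 alternatives kept the call. Of 13 endosomal partners of antigen processing 10 were tested, with 1 higher and 0 lower and a median of −0.18. The called gene was the endosomal RNA sensor Tlr3 (109 ± 24.2 against 265 ± 125 CPM, edgeR adjusted p = 0.0448). Its call was kept in 13 of the 22 alternatives that tested it, and in the others Tlr3 was under the count filter. Among the 8 fits without 1 mouse (0.89 to 1.48), 2 kept the call. Like Naaa, Tlr3 is among the cDC1 markers used above. It had 8, 16, 12 and 11 counts in control mice and 30, 16, 29 and 52 in PGE2-deficient mice. Fewer than 4 control mice reached the limit of the count filter. Tlr3 was thus tested only through the PGE2-deficient mice, where it was called higher.

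The other lysosomal lists had 0 called genes in either direction. Of 15 membrane proteins 6 were tested (median log2 fold change 0.08), led by Laptm5 at 819 ± 167 and 833 ± 162 CPM and Lamp2 at 162 ± 33.3 and 158 ± 48.9 CPM. Of 16 subunits of the V-ATPase, the proton pump that acidifies lysosomes, 8 were tested (median 0.06), led by Atp6v0e at 514 ± 103 and 499 ± 239 CPM and Atp6v1f at 325 ± 88.6 and 313 ± 38.9 CPM. Of 14 genes of lysosomal sorting and biogenesis 2 were tested (median 0.19), M6pr, a receptor that delivers enzymes to lysosomes, at 196 ± 39.97 and 258 ± 81.1 CPM and the retromer subunit Vps35 at 118 ± 43.7 and 119 ± 53.3 CPM. Of 11 genes of the phagosomal oxidase and cross-presentation 7 were tested (median 0.32), led by Wdfy4, which cDC1 need for cross-presentation, at 687 ± 105 and 854 ± 133 CPM, and the oxidase subunit Cyba at 513 ± 84.5 and 394 ± 175 CPM. The median over all tested genes was 0.01.

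The 10 genes were also compared across the 23 pools, on log2(CPM + 50) after removal of the group means. The highest Pearson correlation between any of them was 0.59, for Ctsb and Ctsz, followed by 0.50 for Ctsb and Ctsd, and the lowest was −0.36, for Lamp1 and Psap. Cst3 had correlations from −0.16 (Ctsd) to 0.27 (Lgmn) with the other 9. With the summed macrophage markers Ctsb reached 0.47, Lgmn 0.46 and Ctsd 0.45, whereas Psap was at 0.06 and Cst3 at −0.01. With the summed cDC2 markers Lamp1 reached 0.46 and Ctsc 0.43. With the summed markers of mature dendritic cells Lgmn reached 0.48, Cst3 0.42 and Lamp1 0.41, whereas Psap was at −0.47. With the summed cDC1 markers Psap reached 0.50 and Cst3 0.22, whereas Ctsh was at −0.48. With the summed T cell markers Lgmn was at −0.46. With the summed pDC markers Ctsl reached 0.86, and the pools with the most of both are the control pools named above. The 2 genes of a pair share library and depth in each pool, so these values are descriptions.

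Among the tested genes most like Cst3 over the pools were Rab8b, a small GTPase of vesicle transport (r = 0.71), the cytochrome oxidase subunit Cox4i1 (0.70), the actin-binding Tmsb4x (0.68) and the surface glycoprotein Cd200 (0.67). Without the 2 pools farthest from the median of Cst3 they were at 0.78, 0.59, 0.66 and 0.63. The genes most like Ctsb were the chemokine receptor Ccr2 (0.71), the cochaperone Dnajb6 (0.71), the mitochondrial aminotransferase Got2 (0.68), the predicted gene Gm6472 (0.67) and the RNA-binding Celf1 (0.65). Without the 2 farthest pools these were at 0.61, 0.74, 0.55, 0.63 and 0.62. Ccr2 (50 and 118 counts in control and PGE2-deficient pools) is among the monocyte markers, of which 3 of 6 were in the table. Summed monocyte markers had 515 counts in control pools and 842 in PGE2-deficient pools, of which Plac8 had 417 and 674. No result is given without them.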

How the data were processed

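RNA of sorted cDC1 was measured by Smart-seq3 in 23 libraries of 10 cells. The table the authors deposited holds raw counts, unnormalized integers for each gene in each library. STAR 2.5.4b and GRCm38 (mm10) are named by the submitters' processing notes. How counting was done (program, annotation, gene filter, reads or molecules) is not given in the sources used here, and intervals and floors (3 counts) cover counting error only. Gene rows were matched by identifier to GENCODE M21 (13567 of 13572), and 16 symbols changed to dates were repaired.

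Libraries were summed to 4 mice per group, and nothing in the labels ties equal mouse numbers across groups. filterByExpr (minimum count 10) left 2076 genes with 80.6% of the counts. These were tested with the quasi-likelihood test of edgeR 4.0.16 (TMM, two-sided, Benjamini-Hochberg over all tested genes, threshold 0.05), and the biological coefficient of variation was 21.8%. Standard errors were derived from each fold change with its F statistic. For single values an exact permutation test was used (two-sided, 70 assignments of 8 mice, unadjusted). Lists are described by counts and medians. The scripts were checked on simulated data. Alternatives used DESeq2 1.42.0, limma 3.58.1, other scaling and filters, left-out mice, pools or rows, and the mouse number as a block.

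The 10 genes and all lists were chosen with earlier results of these data known. Named in the text are the 10 genes, up to 4 called genes per list (otherwise the 2 most abundant tested), and the 5 genes most like Cst3 and Ctsb over pools by Pearson correlation, of which 1 is not reported here. R 4.3.3 and Python 3.11.15 were used, with matplotlib 3.10.9 for figures.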

Additional observations from a re-analysis of the deposited data

Results flagged for a closer look

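Ctsz in the control mice stood out by 1 sample. Mouse 1 had 196 CPM and the other 3 had 267 to 275, so the gap from mouse 1 to its nearest neighbour was 0.890 of the whole range of the group, above Dixon's 95% critical value for 4 samples. It was the only 1 of 24 groups of 4 mice tested to pass, and chance flags about 1 in 20.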

How the results depend on the processing

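The number of the 10 genes called higher, 0, was 1 (Cst3) with library totals only (log2 fold change 0.50, adjusted p = 0.0203), robust dispersion (0.42, adjusted p = 0.0139), limma-voom (0.39, adjusted p = 0.013), limma-trend (0.42, adjusted p = 0.0273) and without mitochondrial and ribosomal RNA rows (0.41, adjusted p = 0.0274), and ran from 0 to 1 over the fits without 1 mouse; the number called lower was 0 in all 24 alternatives. The ratio of cathepsin to Cst3 counts differed by −2.57, by −1.44 without technical replicate 1, by −1.68 without the pools with macrophage markers and by −1.04 without the 10 pools with macrophage, pDC or T cell markers. With the mouse number as a replicate block 0 of the 7 tested were called and Cst3 had 0.41 (adjusted p = 0.109), while Ctss (−0.72, adjusted p = 0.0621), Cstb (1.09, adjusted p = 0.0645) and Tlr3 (1.21, adjusted p = 0.077) lost their calls. Deviations of equal numbers correlated by −0.089 to 0.1, and 0 of 4 were closest to their own. With 4 numbers this cannot decide whether mice of equal number were handled together.

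Signs turned for genes that were not called. Ctsc had −0.066 with upper quartile factors, −0.072 without technical replicate 1, −0.042 with minimum count 5, −0.015 with no filter, −0.0025 without mitochondrial and ribosomal RNA rows and −0.14 to 0.16 without 1 mouse. Ctsz had −0.0036 and Lamp1 −0.39 with limma-voom, and −0.014 to 0.35 and −0.60 to 0.53 without 1 mouse. Ctsb had 0.39 without technical replicate 1, 0.064 without the pools with macrophage markers and 0.21 without the 10 pools with macrophage, pDC or T cell markers. In CPM, Lgmn differed by 4.11 without technical replicate 2, 7.18 without the pools with macrophage markers, 9.07 without the 10 pools and −57.6 to 6.81 without 1 mouse, where all mice gave −30.7. Without the 10 pools Ctsd differed by 10.9 and Ctsl by 1.18, against −14.5 and −38.3. These rest on 4 control and 5 PGE2-deficient counts of Ctsd and on 1 and 2 of Ctsl. The cause of the changes in sign was not tested. Over all genes, 45 were called higher and 67 lower with upper quartile factors and 70 and 24 with library totals, against 56 and 47. No filter gave 110 and 84, limma-voom 62 and 79, the replicate block 45 and 28, and the fits without 1 mouse 31 to 67 and 23 to 45. Leaving out technical replicate 1, 2 or 3 gave 32 and 19, 9 and 5, and 32 and 11, and leaving out the 10 pools 18 and 9. The counts of Ctsd, Ctsl and Lgmn limit what can be seen of them.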
